A study of Rattus norvegicus with 10 samples.

Results

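The genes described here encode the RCAN family (Rcan1, Rcan2 and Rcan3), the main calcineurin subunits (Ppp3ca, Ppp3cb and Ppp3r1) and the calcium-dependent NFAT factors (Nfatc1, Nfatc2, Nfatc3 and Nfatc4). They were chosen by gene symbol, and all 10 were found among the 11615 genes of the deposited expression table. Calcineurin is a phosphatase that calcium and calmodulin switch on. It removes phosphates from NFAT transcription factors in the cytoplasm, which then enter the nucleus, until kinases phosphorylate them again and they are exported. RCAN proteins bind calcineurin and can inhibit it, and in human and mouse cells a short form of RCAN1 is itself transcribed from an internal promoter that NFAT activates. In hippocampal neurons calcineurin is abundant, is anchored at synapses and is best known for its part in long-term depression.

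Total RNA came from cultured hippocampal neurons of Wistar rats on day 15 in vitro. In 4 of the groups the cultures had been treated with the solution for chemical long-term potentiation (cLTP), a way to strengthen many synapses of a culture at once, and were harvested after 5, 10, 60 or 120 min. The cultures of the remaining group, called mock, were treated with a mock version of that solution. Each of the 5 groups held 2 biological repeats, and all 10 cultures shared the day 4 treatment with 5-fluoro-2-deoxyuridine and uridine, which limits the growth of glia. The sources used here give neither the makeup of the solutions nor when the mock cultures were harvested.

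Libraries held between 32961534 and 54040657 reads. Levels are CPM (reads divided by the library's total, on a common scale), rescaled with TMM factors so that most genes have the same level in all libraries. A change is a difference in log2(CPM + 1) fitted with limma over all 10 libraries, and a gene is said to have risen or fallen where its p, adjusted by the Benjamini-Hochberg method over 11615 genes, was under 0.05. The labelled cell type was checked against markers. All 7 neuronal markers were detected, with a summed level of 3458 to 3596 CPM in the mock libraries, but so were all 6 astrocyte markers, at 19690 to 19740 CPM, and all 6 markers of the oligodendrocyte lineage, at 1346 to 1409 CPM. All 6 microglial markers were detected too, at 185.5 to 187.7 CPM. Of the 6 markers of vascular cells and fibroblasts, 3 were detected, Col1a1, Col3a1 and Pdgfrb, at a summed 2265 to 2420 CPM. Col1a2, Pecam1 and Cldn5 were not among the 11615 genes. These are mixed cultures, and in their RNA fewer cells of a type and less RNA per cell cannot be told apart.

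Rcan1 had the largest change of the 10 members at 60 min. Its RefSeq promoter is printed because the region before the start holds matches to the binding motifs of several activity-regulated factors. That of Nfatc2 is printed beside it. At 120 min Nfatc2 had the largest change besides that of Rcan1. Its window held none of these matches, nor did those of Rcan2 and Ppp3ca, and a link between matches and timing was not tested. Both printed windows are the 250 bases before the annotated start in RefSeq's GRCr8 assembly. They lie at chr11:45118237-45118486 on the minus strand for Rcan1 and chr3:177732975-177733224 on the minus strand for Nfatc2. Capitals mark GGAAA, the core bound by NFAT (TTTCC on the other strand), TGACGTCA, the cyclic AMP response element bound by CREB, and TGACTCA, the element bound by AP-1 (Fos and Jun).
Rcan1: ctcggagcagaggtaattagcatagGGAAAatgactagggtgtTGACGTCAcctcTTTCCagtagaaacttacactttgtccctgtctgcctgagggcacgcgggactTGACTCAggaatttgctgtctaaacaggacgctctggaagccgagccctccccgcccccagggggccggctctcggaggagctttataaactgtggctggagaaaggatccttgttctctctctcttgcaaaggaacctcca
Nfatc2: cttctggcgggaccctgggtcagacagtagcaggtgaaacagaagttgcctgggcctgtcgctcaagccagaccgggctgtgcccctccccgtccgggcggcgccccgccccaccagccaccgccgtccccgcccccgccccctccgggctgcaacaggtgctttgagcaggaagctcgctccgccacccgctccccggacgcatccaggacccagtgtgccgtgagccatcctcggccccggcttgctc

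The Rcan1 window is that of an internal start, 69829 bases downstream of the gene's most upstream annotated start and 10114 bases from its far end. The Nfatc2 window too belongs to a downstream start, 14519 bases from the gene's most upstream one, so that it is not the gene's only promoter. Counting back from the start, the first NFAT core lay at -225 to -221, the cyclic AMP response element at -207 to -200, a second NFAT core, on the other strand, at -195 to -191, and the AP-1 element at -142 to -136. No match overlapped another. Both strands were searched in the 250-base windows of all 33469 RefSeq promoters. GGAAA occurred in 56.9% of them, TGACTCA in 4.05% and TGACGTCA in 1.59%. The AP-1 and cyclic AMP elements occurred together in 16 windows (0.0478%), and all 3 motifs in 8 (0.0239%). The motifs were picked after the Rcan1 sequence had been read, so that these shares describe the window and test nothing.

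Of the 10 members, 7 had a promoter window in the RefSeq table. Here too the window need not be that of the most upstream annotated start. Its start lay 11513 bases downstream of that one for Ppp3r1, 8498 for Rcan3 and 2045 for Rcan2. For Ppp3ca the distance was 549 bases, and for Ppp3cb 80. Rcan3 held 3 NFAT cores, at -139, -60 and -46, a number or more that 7.14% of all windows hold. Ppp3cb held 1, at -72, and Ppp3r1 held 1, at -250. Rcan2, Ppp3ca and Nfatc2 held none of the 3 motifs in these 250 bases, and Rcan1 was the member with an AP-1 or cyclic AMP element. A match to these letters is not evidence of binding, and the lack of one says nothing about the factor.

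**Figure D1:**
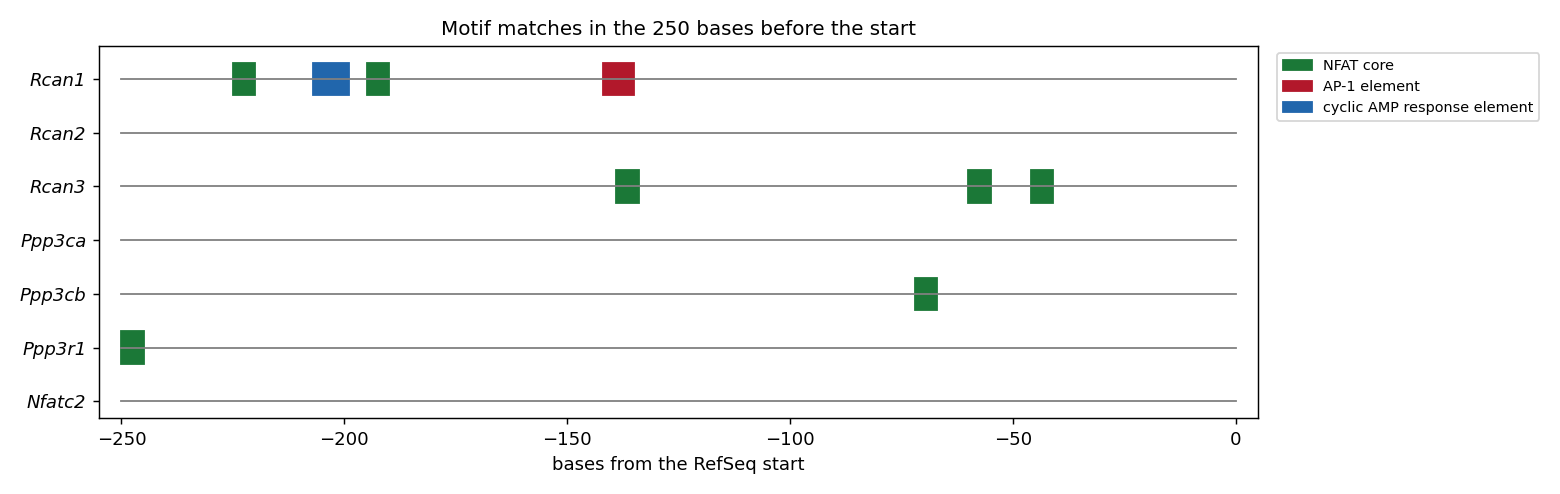
Matches to 3 motifs in the 250 bases before the RefSeq start of the 7 members with a promoter window (x axis: bases from the start, one line per gene; coloured blocks: matches on either strand). Rcan1 holds 4 matches, Rcan3 holds 3, Ppp3cb and Ppp3r1 hold 1 each, and the lines of Rcan2, Ppp3ca and Nfatc2 are empty.

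Among the RCAN genes, Rcan1 rose between 10 and 60 min and stayed high at 120 min, Rcan2 was slightly higher at 120 min, and Rcan3 passed no test. The Rcan1 row spans chr11:32539689-32550523 on the minus strand (rn6 build, 10835 bases), and 3829 to 11887 reads stood behind each value. Its level was 107.5 and 111.7 CPM in the mock libraries, 114.4 and 119.3 at 5 min, 109.8 and 119.5 at 10 min, 298.2 and 292.9 at 60 min, and 313.3 and 293.2 at 120 min. The 4 late libraries lay far above the 6 others, with no overlap, and the levels at 60 and 120 min overlapped each other.

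The fitted change of Rcan1 from mock was 1.42 ± 0.0511 (log2, SE, n = 2 per group; adjusted p = 1.52e-09 by limma), or 2.68-fold, at 60 min and 1.46 (adjusted p = 1.01e-09), or 2.75-fold, at 120 min. From 10 to 60 min the change was 1.36 (adjusted p = 2.94e-09). From 60 to 120 min it was 0.04, with a 95% interval from -0.08 to 0.15 (adjusted p = 0.613). By 60 min Rcan1 had made 96% of the CPM difference from mock that it showed at 120 min. Its change ranked 81st from the highest of all genes at 60 min and 102nd at 120 min. In the authors' deposited table the log2 fold changes of Rcan1 were 1.43 at 60 min and 1.47 at 120 min. Whether the added reads came from the internal start cannot be told from 1 value per gene. The counted row spans 10835 bases in rn6. In GRCr8 there are 10114 bases from the internal start to the far end, and the whole gene spans 79943. The value may thus leave out reads from parts of the gene further upstream.

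Rcan2, a relative expressed strongly in brain, lies at chr9:19518568-19749145 on the minus strand (rn6). It measured 133.6 and 140.1 CPM in the mock libraries, between 132.9 and 143.2 CPM in the 6 libraries at 5, 10 and 60 min, and 149.0 and 154.5 CPM at 120 min. The libraries at 120 min were above all others, by a margin small beside that of Rcan1. Rcan2 rose by 0.15 ± 0.0464 (log2, SE) at 120 min (adjusted p = 0.0259 by limma), or 1.11-fold. This call was lost without mock repeat 1 or either library at 120 min, and with scaling to library totals alone (adjusted p up to 0.175). Over all times together its F test gave an adjusted p of 0.0822.

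Rcan3, at chr5:153773857-153782062 on the minus strand (rn6), was a low gene, measured at 5.42 and 6.20 CPM in the mock libraries. Across the 10 libraries it ranged from 5.13 CPM at 60 min to 6.29 CPM at 120 min. The change at 120 min was 0.06, with a 95% interval from -0.14 to 0.26 (adjusted p = 0.645 by limma), so that a change of the size of Rcan1's lay outside its interval. Divided by the deposited gene length, the RCAN genes can be set beside each other, but their rows may cover unlike parts of the genes. The Rcan1 row spans 10835 bases in rn6 and its gene 79943 in GRCr8, and for Rcan3 these are 8206 and 20942. For Rcan2 they are 230578 and 217374. The levels and shares per kb depend on what the rows cover. In the mock group Rcan1 stood at 51.4 ± 1.39 CPM per kb (SD, n = 2), Rcan2 at 40.9 ± 1.36 and Rcan3 at 7.36 ± 0.692. Rcan1 made up 51.6% of the summed RCAN level per kb in mock, 74.3% at 60 min and 72.8% at 120 min.

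**Figure D2:**
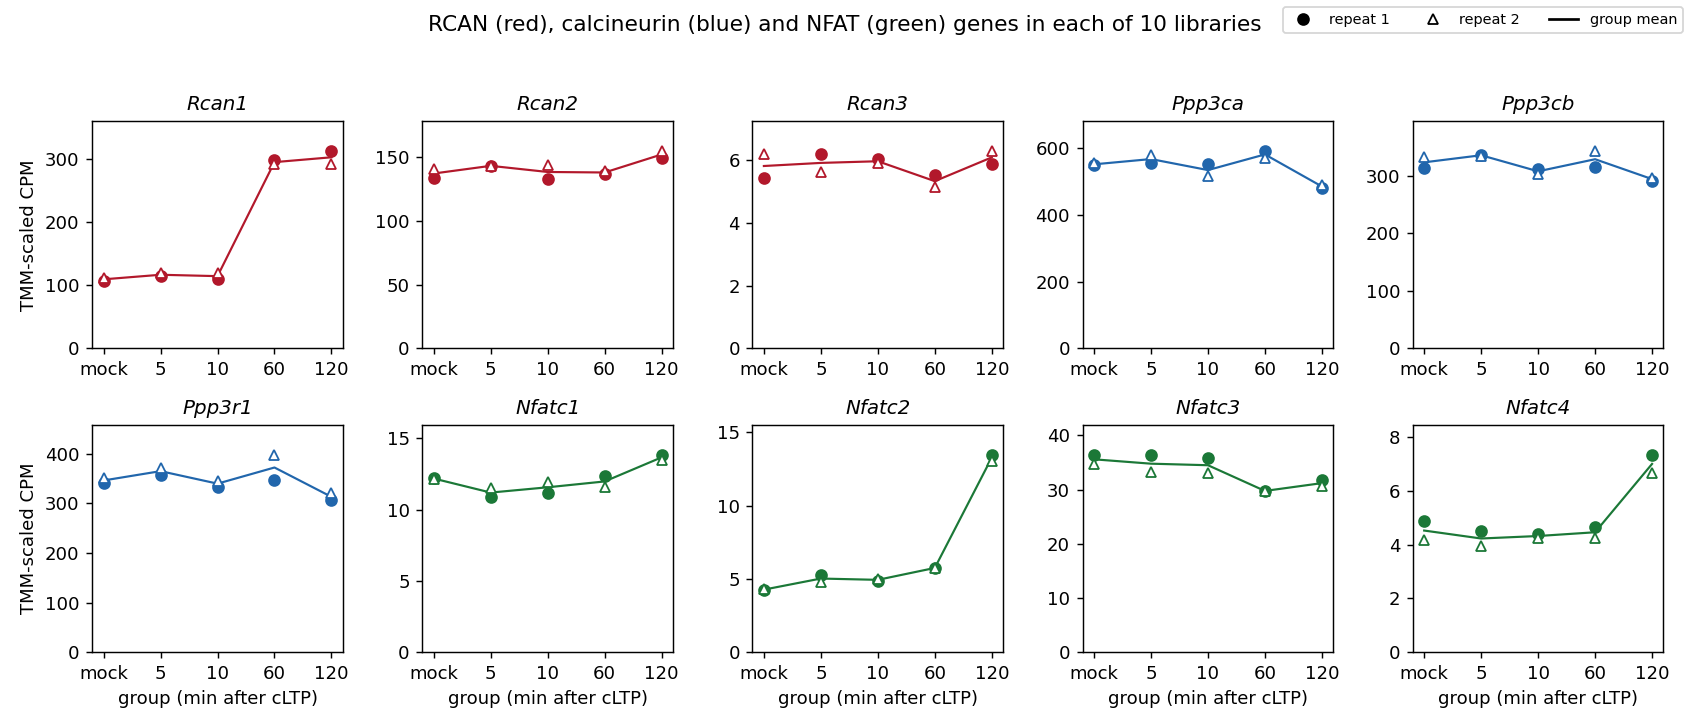
TMM-scaled CPM of each of the 10 genes in every library (one panel per gene, circles: repeat 1, triangles: repeat 2, lines: group means, x axis: mock, 5, 10, 60 and 120 min). Rcan1 steps up from 109.8 and 119.5 CPM at 10 min to 298.2 and 292.9 at 60 min, while Nfatc2 steps up between 60 min (5.74 and 5.76 CPM) and 120 min (13.5 and 13.1 CPM).

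The calcineurin subunits moved little and in the other direction. Ppp3ca and Ppp3cb encode the catalytic subunits A alpha and A beta, and Ppp3r1 the regulatory subunit B, which binds calcium. None of these genes passed the test at 5, 10 or 60 min. At 120 min Ppp3ca and Ppp3cb had fallen below mock, and all 3 genes had fallen below their level at 60 min.

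Ppp3ca, at chr2:241909832-242184862 on the plus strand (rn6), measured 549.3 and 555.6 CPM in the mock libraries, 556.6 and 579.9 at 5 min, 553.7 and 516.7 at 10 min, 592.6 and 571.7 at 60 min, and 482.4 and 489.5 at 120 min. The pair at 120 min lay below every other library. Ppp3ca fell by 0.18 on the log2 scale at 120 min against mock (SE 0.0441, adjusted p = 0.00658 by limma), to 0.88 times the mock level on the CPM + 1 scale. Against 60 min it fell by 0.26 (adjusted p = 0.000846). Without mock repeat 2 the adjusted p against mock was 0.0505.

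Ppp3cb, at chr15:4209702-4236890 on the plus strand (rn6), measured 313.2 and 332.5 CPM in the mock libraries, 335.6 and 334.7 at 5 min, 311.2 and 303.3 at 10 min, 313.9 and 342.6 at 60 min, and 291.1 and 296.4 at 120 min. Here too the pair at 120 min was the lowest, but the next value, 303.3 CPM at 10 min, was close. Ppp3cb fell by 0.14 on the log2 scale at 120 min against mock (SE 0.0479, adjusted p = 0.044 by limma) and by 0.16 against 60 min (adjusted p = 0.0227). The call against mock was lost without mock repeat 2, 10 min repeat 1 or either library at 120 min (adjusted p up to 0.285). The call against 60 min was lost without 60 min repeat 2 or either library at 120 min (adjusted p up to 0.201).

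Ppp3r1, at chr14:100322735-100360706 on the plus strand (rn6), measured 340.1 and 351.7 CPM in the mock libraries, 357.9 and 371.4 at 5 min, 333.3 and 345.7 at 10 min, 346.4 and 397.6 at 60 min, and 306.0 and 319.8 at 120 min. The libraries at 60 min were far apart, and those at 120 min were the lowest. Against 60 min Ppp3r1 fell by 0.25 on the log2 scale at 120 min (SE 0.0585, adjusted p = 0.00673 by limma), a call lost without 60 min repeat 2 or 120 min repeat 1 (adjusted p up to 0.067). Against mock the change was -0.14, which did not pass (adjusted p = 0.0731). The authors' deposited table gives -0.14 with an adjusted p of 0.0209 for that comparison.

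Per kb of gene length, Ppp3ca was the highest subunit in the mock group at 236.7 ± 1.91 CPM (SD, n = 2), followed by Ppp3cb at 151.0 ± 6.37 and Ppp3r1 at 124.7 ± 2.97. These levels did not overlap between the genes. Their order depends on what the rows cover, and that of Ppp3cb spans 27189 bases in rn6 where its gene spans 45023 in GRCr8. Their shares of the summed level kept close to each other through the course. Ppp3ca took 46.2% in mock and 45.4% at 120 min, Ppp3cb 29.5% and 29.98%, and Ppp3r1 24.3% and 24.6%. The summed level was 504.4 and 520.3 CPM per kb in the mock libraries and 453.1 and 463.6 at 120 min.

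Neuronal markers fell at 120 min, as Ppp3ca and Ppp3cb did, and so did markers of other cell types. At 120 min 5 of the 7 neuronal markers had fallen and none had risen, where 16.9% of all genes had fallen and 20.4% had risen, with a median log2 change of -0.22 over the list. Their summed level was 3458 to 3596 CPM in mock, 3465 to 3584 at 60 min and 2977 to 3083 at 120 min. Syn1, which coats synaptic vesicles, fell by 0.32 on the log2 scale (adjusted p = 0.000546 by limma), and Snap25, which drives vesicle fusion, by 0.22 (adjusted p = 0.00122). The count was 3 without either mock or either 120 min library, and 7 with scaling to library totals alone. Of the 6 astrocyte markers, 2 rose at 120 min, and their summed level was 21030 to 21990 CPM. The astrocyte count was 0 without either mock library, and 0 higher with 1 lower both with scaling to library totals alone and without 120 min repeat 1. All 6 microglial markers fell, to a summed 132.1 to 138.7 CPM, with a median log2 change of -0.43. Of 6 markers of the oligodendrocyte lineage, 2 fell, with a list median of -0.22, beside -0.22 for the neuronal list. With scaling to library totals alone 4 of these 6 fell. Without 120 min repeat 2 the medians were -0.36 for microglia and -0.11 for the oligodendrocyte lineage. Of the 3 measured markers of vascular cells and fibroblasts, 2 fell, Col1a1 and Pdgfrb. The part of cell makeup in the fall of Ppp3ca and Ppp3cb was not tested.

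Of the NFAT genes, Nfatc2 and Nfatc4 rose at 120 min, Nfatc3 fell at 60 and 120 min, and Nfatc1 passed no test. Nfatc2 encodes NFAT1, known from T cells, where it drives cytokine genes. Its row spans chr3:165245238-165360292 on the minus strand (rn6), with 157 to 530 reads behind each value. It measured 4.22 and 4.32 CPM in the mock libraries, 5.26 and 4.79 at 5 min, 4.87 and 5.00 at 10 min, 5.74 and 5.76 at 60 min, and 13.5 and 13.1 at 120 min. All 8 cLTP libraries were above both mock libraries, and the pair at 120 min stood apart from the rest.

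At 5 and 10 min the changes of Nfatc2, 0.19 and 0.17 on the log2 scale, did not pass (adjusted p = 0.273 and 0.519 by limma). At 60 min Nfatc2 rose by 0.36 ± 0.0801 (log2, SE; adjusted p = 0.0183), or 1.28-fold, a call lost without either mock or either 60 min library (adjusted p up to 0.129). At 120 min it rose by 1.44 (adjusted p = 6.35e-08), or 2.71-fold. These folds are on the scale of CPM + 1, which understates the change of a low gene, and the mean level went from 4.27 ± 0.0733 CPM in mock to 13.3 ± 0.272 CPM at 120 min (SD, n = 2). From 60 to 120 min the change was 1.08 (adjusted p = 1.27e-06). Only 16.4% of the CPM difference at 120 min was present at 60 min, against 96% for Rcan1. The rank of Nfatc2 from the highest of all genes was 382nd at 60 min and 106th at 120 min. The authors' deposited table gives Nfatc2 a log2 fold change of 1.64 at 120 min.

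Nfatc4, which encodes the NFAT3 protein studied in neurons and heart, lies at chr15:34493163-34502238 on the plus strand (rn6), with 151 to 277 reads per library. It measured 4.89 and 4.16 CPM in the mock libraries and between 3.94 and 4.66 CPM in the libraries at 5, 10 and 60 min. At 120 min it measured 7.34 and 6.66 CPM, above all others. Nfatc4 rose by 0.54 ± 0.1013 (log2, SE) at 120 min against mock (adjusted p = 0.00159 by limma), or 1.45-fold. From 60 to 120 min the change was 0.55 (adjusted p = 0.00145). At 60 min the change was -0.01, with a 95% interval from -0.24 to 0.21.

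Nfatc3, encoding NFAT4, lies at chr19:38039729-38114003 on the plus strand (rn6). It measured 36.4 and 34.7 CPM in the mock libraries, 36.3 and 33.2 at 5 min, 35.8 and 33.1 at 10 min, 29.7 and 29.8 at 60 min, and 31.8 and 30.6 at 120 min. The 4 late libraries were below the 6 others. Nfatc3 fell by 0.25 on the log2 scale at 60 min (SE 0.0619, adjusted p = 0.0318 by limma), a loss of 15.9%, and by 0.18 at 120 min (adjusted p = 0.0351). The call at 60 min was lost without any 1 of the mock, 60 min or 120 min libraries (adjusted p up to 0.243), and that at 120 min without any 1 of the mock or 120 min libraries (adjusted p up to 0.181).

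Nfatc1, encoding NFAT2, lies at chr18:77203519-77322690 on the minus strand (rn6). It measured 12.2 and 12.1 CPM in the mock libraries, between 10.9 and 12.4 CPM in the libraries at 5, 10 and 60 min, and 13.9 and 13.5 CPM at 120 min. The pair at 120 min was the highest, but the change of 0.15 (95% interval from -0.0021 to 0.31) did not pass (adjusted p = 0.113 by limma). Per kb of gene length, Nfatc3 was the highest NFAT gene in mock at 5.97 ± 0.198 CPM (SD, n = 2), then Nfatc1 at 2.96 ± 0.0203. Nfatc4, at 1.43 ± 0.163, and Nfatc2, at 1.153 ± 0.0198, followed. At 120 min Nfatc3 stood at 5.24 ± 0.137, Nfatc2 at 3.58 ± 0.0734, Nfatc1 at 3.32 ± 0.0623 and Nfatc4 at 2.21 ± 0.151. In neither group did the libraries of neighbours in this order overlap. The order between genes rests on the deposited rows, which may not cover the whole of each gene. The share of Nfatc2 in the summed NFAT level per kb was 10.0% in mock, 14.3% at 60 min and 25.0% at 120 min, and that of Nfatc3 was 51.9%, 45.98% and 36.5%.

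**Figure D3:**
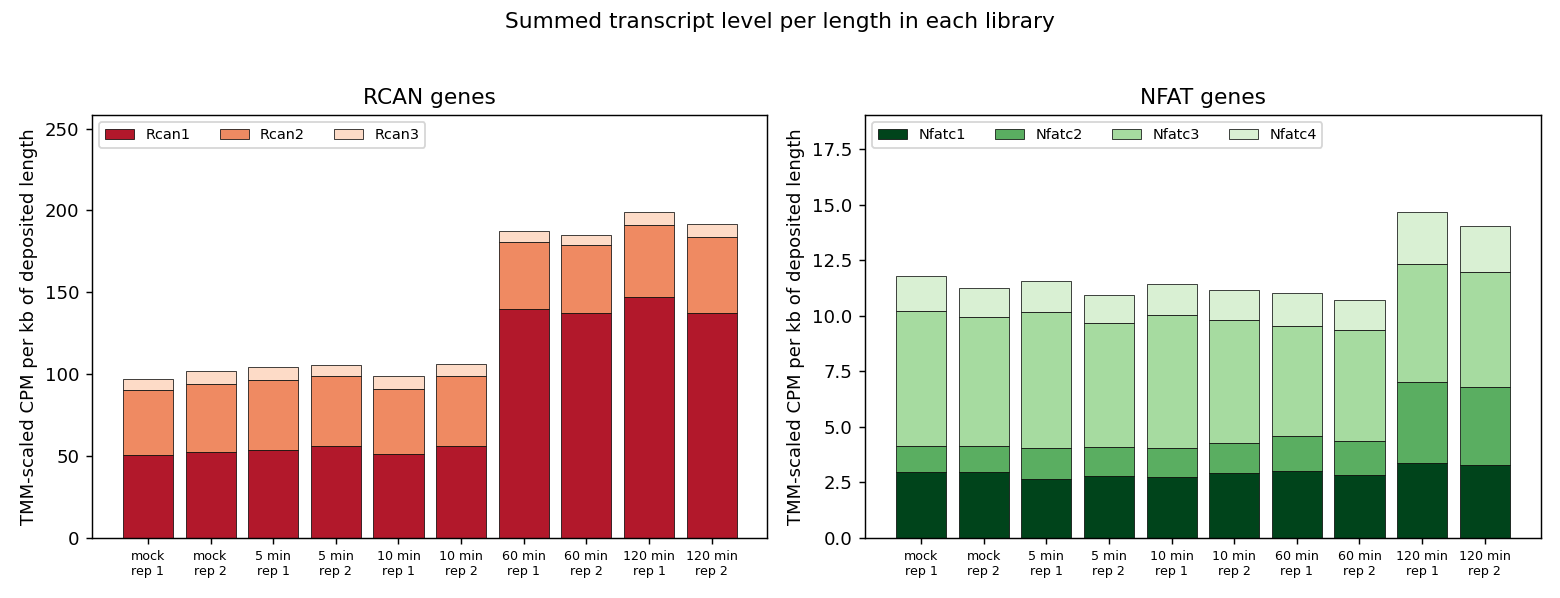
Summed level per kb of deposited gene length of the RCAN genes (left) and the NFAT genes (right) in each of the 10 libraries (stacked bars: genes; y axis: TMM-scaled CPM per kb, from 0). The RCAN sum goes from 97.2 and 102 in mock to 187.5 and 185.2 at 60 min through its Rcan1 part, and the NFAT sum is highest at 120 min, at 14.7 and 14.1, where its Nfatc2 part is largest.

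Counted over the family, none of the 10 members was called by limma at 5 min, against 0% of all genes. With no adjustment, p was under 0.05 for 1 member, Nfatc2, and for 1862 of all genes, and limma-voom on read-scale values also called 0. At 10 min none was called, against 0.0344% of all genes (4 genes), and no member had an unadjusted p under 0.05, with 1148 of all genes there. From 5 to 10 min none was called, against 0.00861% of all genes, with 1 member and 1843 of all genes under 0.05 unadjusted. Limma-voom called no member in either of these comparisons.

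At 60 min 2 members had risen, Rcan1 and Nfatc2, where 4.64% of all genes had, and 1 had fallen, Nfatc3, where 1.95% had. At 120 min 4 members had risen, Rcan1, Rcan2, Nfatc2 and Nfatc4, where 20.4% of all genes had, and 3 had fallen, Ppp3ca, Ppp3cb and Nfatc3, where 16.9% had. From 10 to 60 min 1 member rose, Rcan1, and none fell, against 3.7% and 1.93% of all genes. From 60 to 120 min 3 rose, Rcan2, Nfatc2 and Nfatc4, and 3 fell, Ppp3ca, Ppp3cb and Ppp3r1, against 19.8% and 16% of all genes. A change at any time was called for 7 members, against 41.3% of all genes. Changes at 120 min were thus common across the table. The median log2 change of the 10 members was 0.10 at 120 min, beside -0.01 over all genes.

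The split of all genes depended on the scaling. With scaling to library totals alone, 1786 genes had risen and 3123 had fallen at 120 min, against 2367 and 1960, and at 60 min 447 and 333, against 539 and 227. From 10 to 60 min the split was 374 and 405, against 430 and 224. Under that scaling 3 members had risen and 4 had fallen at 120 min, since Rcan2 no longer passed and Ppp3r1 did.

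**Figure D4:**
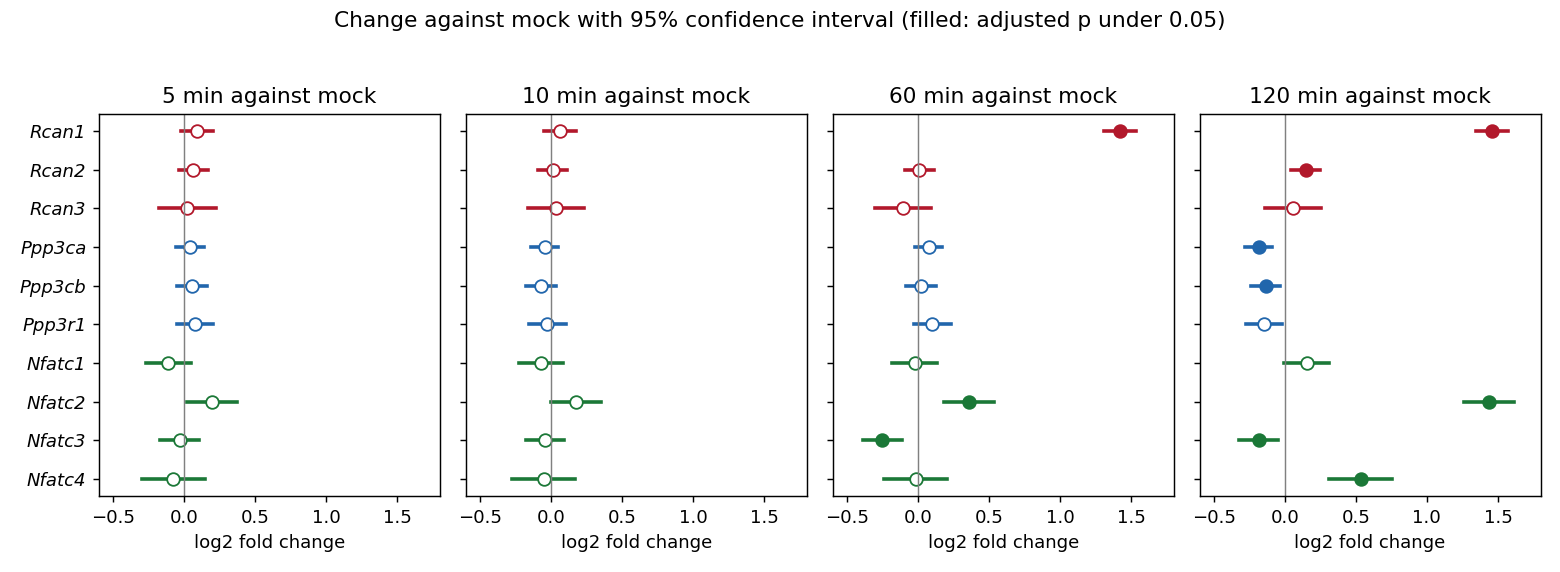
Fitted log2 change from mock of each of the 10 genes at 5, 10, 60 and 120 min (one panel per time; x axis: log2 fold change on the CPM + 1 scale; bars: 95% intervals; filled points: adjusted p under 0.05). Rcan1 is at 1.42 at 60 min and 1.46 at 120 min, Nfatc2 at 0.36 and 1.44, Nfatc4 at -0.01 and 0.54, and the other 7 genes stay between -0.25 and 0.15 at these times.

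Genes around the calcineurin pathway were taken from lists of known components. Of 7 further calcineurin subunits and partners, 6 were measured. At 120 min Akap5, the anchoring protein that holds calcineurin at synapses, fell from 41.96 ± 0.0693 to 31.9 ± 1.21 CPM (SD, n = 2), by 0.39 on the log2 scale (adjusted p = 0.0055 by limma). The other 5 did not pass, where 16.9% of all genes had fallen and 20.4% had risen, and the list's median was -0.02. At 60 min none of the 6 passed, and the smallest p belonged to Fkbp1a, which binds the calcineurin inhibitor FK506 (log2 change 0.12, adjusted p = 0.139), and to Ppp3cc, another catalytic subunit (0.09, adjusted p = 0.519).

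Of 13 genes of calmodulin and its kinases, 5 had fallen at 120 min and none had risen, where 16.9% of all genes had fallen and 20.4% had risen. The list's median was -0.12. Camk2a, the alpha subunit of the kinase CaMKII that is needed for potentiation, fell from 264.3 ± 11.3 to 214.5 ± 3.12 CPM, by 0.30 on the log2 scale (adjusted p = 0.00186 by limma). Camk2b fell by 0.21 (adjusted p = 0.00326) and Camk2g by 0.19 (adjusted p = 0.0101). Calm3 and Camk4 were the others. The count was 3 without mock repeat 2 or either library at 120 min, and 9 with library totals. At 60 min none passed, and the smallest p belonged to Camk2g (log2 change 0.09, adjusted p = 0.368) and Camk1 (0.09, adjusted p = 0.436). Markers of neurons and of other cell types given above fell as well, and the part of cell makeup was not tested.

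Of 10 kinases that phosphorylate NFAT and Homer scaffolds that bind it, 5 had risen at 120 min and none had fallen, against 20.4% and 16.9% of all genes. The list's median was 0.12. Csnk1a1, which encodes casein kinase 1 alpha, rose from 229.1 ± 2.50 to 286.8 ± 6.95 CPM, by 0.32 on the log2 scale (adjusted p = 5.42e-05 by limma). Dyrk1a, a kinase that primes NFAT for export, rose from 94.6 ± 2.49 to 113.5 ± 2.56 CPM, by 0.26 (adjusted p = 0.00167). Dyrk2 rose by 0.16 (adjusted p = 0.0111), and Csnk1d and Csnk1e were the others. The count depended on single libraries and on the scaling, being 2 without mock repeat 2 or 120 min repeat 1, 3 without mock repeat 1 or 120 min repeat 2, and 2 higher with 2 lower under library totals. Csnk1a1 and Dyrk1a passed under each of the 17 other settings. The list did not move as one, since Gsk3a (-0.19 to -0.11), Dyrk1b (-0.21 to -0.10) and Homer2 (-0.22 to -0.09) had negative log2 changes under these settings. Gsk3a was called lower with library totals and with the 2 groups alone. At 60 min none passed, and the smallest p belonged to Homer3 (log2 change 0.16, adjusted p = 0.199) and Csnk1a1 (0.07, adjusted p = 0.415).

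Of 8 calcium entry and store genes, 1 had risen and 3 had fallen at 120 min, with a median of -0.06. With 20.4% of all genes higher and 16.9% lower, these counts lie near those of the table as a whole. Orai1, the pore of store-operated calcium entry, rose from 24.1 ± 1.14 to 35.2 ± 0.0469 CPM, by 0.53 on the log2 scale (adjusted p = 0.000125 by limma). Cacna1c, the pore of an L-type calcium channel that feeds calcineurin in neurons, fell from 81.0 ± 1.37 to 62.0 ± 0.128 CPM, by 0.38 (adjusted p = 0.000819). Itpr1, a calcium release channel of the stores, fell by 0.32 (adjusted p = 0.00514), a call lost without mock repeat 2, with an adjusted p of 0.0602. Cacna1d was the remaining one. Its call depended on single mock and 120 min libraries, and its log2 change ran from -0.289 to -0.159 over the 17 other settings. At 60 min none passed, and the smallest p belonged to Orai1 (0.18, adjusted p = 0.195) and Orai3 (-0.16, adjusted p = 0.275).

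Of 13 other calcineurin-regulated proteins and the calcineurin-independent relative Nfat5, 11 were measured, of which 1 had risen and 3 had fallen at 120 min, again near the 20.4% and 16.9% of all genes. The list's median of 0.01 turned to -0.06 with scaling to library totals alone and to -0.08 without mock repeat 2. Foxo3, a stress-responsive transcription factor, fell from 37.4 ± 2.75 to 28.8 ± 1.44 CPM, by 0.36 on the log2 scale (adjusted p = 0.00107 by limma). Dnm1, the dynamin of synaptic vesicle recycling, fell by 0.20 (adjusted p = 0.0074), a call lost without mock repeat 2 or 120 min repeat 1. Tfeb, a regulator of lysosomal genes, rose by 0.25 (adjusted p = 0.0189), a call lost with library totals, without mock repeat 1 and without either library at 120 min. Bad also fell, but its call was lost under 10 of 17 settings. Without mock repeat 2 or 120 min repeat 1 the list held 1 gene that fell. At 60 min Nfat5 was the 1 gene of the list called, falling from 54.8 ± 3.34 to 46.5 ± 0.429 CPM, by 0.23 on the log2 scale (adjusted p = 0.0439 by limma), and at 120 min it stood at 59.5 ± 0.129 CPM. That call was lost without mock repeat 1 and without any 1 of the 60 and 120 min libraries.

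**Figure D5:**
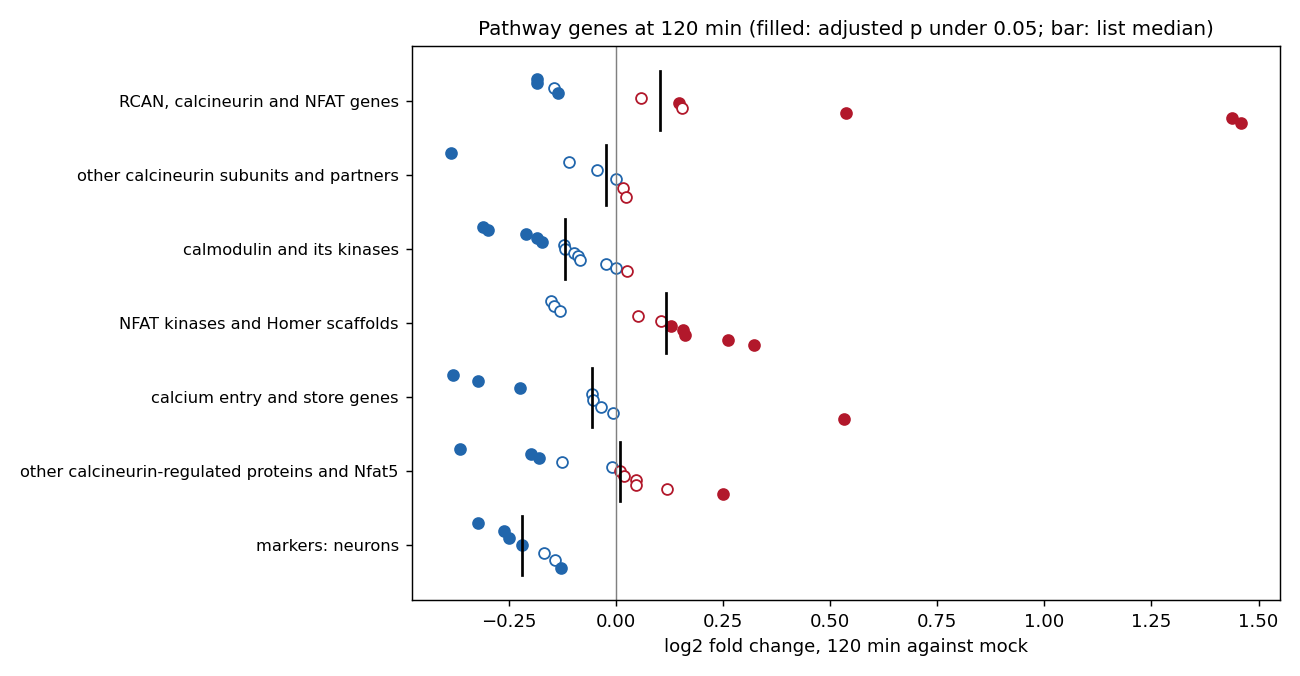
Log2 change at 120 min against mock of the 10 members (top row), the 5 pathway lists and the neuronal markers (bottom row; x axis: log2 fold change; points: genes, red above 0 and blue below, filled where the adjusted p was under 0.05; bars: list medians). In the list of NFAT kinases and Homer scaffolds the filled points are 5 on the right, and in the list of calmodulin and its kinases they are 5 on the left; with scaling to library totals alone these became 2 higher and 2 lower, and 9 lower.

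Rcan3, Ppp3r1 and Nfatc1, not called against mock at any time, were left out of the search for like genes. For each other member the genes with the most similar pattern were found by Pearson's r over the 10 libraries, among 11103 genes. For Rcan1 they were Zfp593 (r = 0.9982), Rnd1 (0.9981), Coq10b (0.9979), Nfkbie (0.9978) and Angptl4 (0.9976), and 109 genes had an r over 0.95. Angptl4 went from 9.89 ± 0.177 CPM in mock to 136.4 ± 0.0382 at 60 min and 164.4 ± 6.79 at 120 min, and Rnd1 from 19.9 ± 0.0122 to 88.6 ± 3.14 and 94.7 ± 0.46. For Nfatc2 they were Ptpn2 (r = 0.9965) and Adss (0.9961), with 372 genes over 0.95. Ptpn2 stood at 25.3 ± 1.29 CPM in mock, 31.9 ± 0.735 at 60 min and 65.3 ± 1.02 at 120 min. For Nfatc4 they were Cdc42ep1 (0.9868) and Rbbp8 (0.9838), and for Nfatc3 Zfp467 (0.9649) and Zfp709 (0.9573). For Ppp3ca they were Apba2 (0.9823) and Tspyl4 (0.9808), for Ppp3cb Trpc4 (0.972) and Dpp10 (0.967), and for Rcan2 Ccm2 (0.9736) and Timm8a1 (0.9533). These correlations follow the 5 group means, and points of 1 library share its depth and scaling.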

How the data were processed

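RNA of 10 cultures was sequenced as ribosome-depleted, poly(A)-selected RNA, per the labels' protocols. The submitters' processing notes name the build rn6 and the tools edgeR, HTSeq, TopHat2 2.1.0 and bcl2fastq; annotation and strand setting were not given in the sources used here, so that overlapping antisense genes cannot be separated. The authors deposited CPM per library with the coordinates and length of 11615 genes. For every time against mock the authors deposited a p-value, raw and adjusted, and a log2 fold change. Its 6 repeated mock columns, identical to the first, were not used.

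All CPM values were whole multiples of a step per library, to within 0.01 reads, and the lowest listed value was worth 9 to 20 reads, so that the table holds only genes above a minimum. CPM were rescaled with TMM factors (trimming 30% of ratios and 5% of levels) and log2(CPM + 1) was fitted with limma 3.58.1 (trend) in R 4.3.3, with 5 residual degrees of freedom; p-values were adjusted over all genes. The steps were tested on simulated data, with the same dispersion setting for every gene and far fewer changed genes than were called here. That run checked the steps and says nothing about how reliable the calls from these libraries are. The edgeR alternative was planned for raw counts only and was not run, since the deposited values are CPM. Limma-voom was run on read-scale values taken from the CPM steps. It and all alternatives for the pathway and marker lists were added after the data were seen. Other alternatives were the scaling, a pseudocount of 0.1, a minimum mean of 1 CPM, a replicate block, the 2 groups alone and each library left out. Likeness used genes with a mean of at least 2 CPM. Nothing says that the repeats came from separate animals, so that p-values measure the spread between these libraries.

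The members, lists and motifs were chosen with earlier results of these data known. All 10 members were named; of each pathway list the called genes with the 3 smallest p at 60 and at 120 min were named, or the 2 smallest p where none was called. Genes named as the remainder of a count, and the markers, were chosen after their values were seen. Promoter sequences are RefSeq's (GRCr8), matched by symbol.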

Additional observations from a re-analysis of the deposited data

Results flagged for a closer look

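The design has groups of 2 libraries, too few to test a single library as an outlier. Each result here is a change between neighbouring times, tested by limma with p adjusted over all genes. Rcan1 differed between 10 and 60 min, by 1.36 on the log2 scale (adjusted p = 2.94e-09), with both libraries at 60 min above both at 10 min. Between 60 and 120 min Nfatc2 differed by 1.08 (adjusted p = 1.27e-06), Nfatc4 by 0.55 (adjusted p = 0.00145) and Rcan2 by 0.14 (adjusted p = 0.0353), each with both libraries higher at 120 min. In the same interval Ppp3ca differed by -0.26 (adjusted p = 0.000846), Ppp3r1 by -0.25 (adjusted p = 0.00673) and Ppp3cb by -0.16 (adjusted p = 0.0227), each with both libraries lower at 120 min. Such separation of 2 libraries from 2 adds no support to the calls. Rcan3, Nfatc1 and Nfatc3, which did not pass from 60 to 120 min, also had both libraries higher at 120 min.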

How the results depend on the processing

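None of the 16 called changes of members (against mock, or from 60 to 120 min) changed direction under the 17 alternatives; some list medians near 0 and genes that did not pass did. Rcan1 at 60 min (log2 change 1.39 to 1.45) and 120 min (1.40 to 1.51), Nfatc2 at 120 min (1.38 to 1.63) and Nfatc4 at 120 min (0.44 to 0.63) passed under all of them. Leaving out 1 library at a time, the number of members called was 1 to 3 at 60 min, 4 to 8 at 120 min, 1 to 2 from 10 to 60 min, 3 to 6 from 60 to 120 min and 2 to 7 for a change at any time. At 60 min Rcan1 was the 1 member left without either mock or either 60 min library. At 120 min 4 were left without mock repeat 2 or either 120 min library, and a change at any time was called for 2 without 120 min repeat 1 and 4 without 120 min repeat 2. Rcan2 between 60 and 120 min was lost with library totals and without any 1 of the 60 and 120 min libraries (adjusted p up to 0.204). These fits have fewer samples, and a lone library is assumed to vary like the other groups.

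Without 5 min repeat 1, 111 genes were called higher and 582 lower at 5 min against mock, where 0 were called with it, and 638 and 95 from 5 to 10 min, where 1 was called; 0 members were among them. The replicate block was fitted as well: with it 8 members were called at 120 min, Ppp3r1 being added, and 3 at 60 min and 6 from 60 to 120 min, as without it. From 5 to 10 min it called 128 genes higher and 2 lower, where 1 was called without it. The correlation of same-numbered deviations was 0.273, 0.101 and 0.189 for the 3 pairs among mock, 5 and 10 min, but -0.164 to 0.0533 for the 7 pairs with a later group; since not every pair was over 0.1, the numbers were not taken to pair the libraries, and the block is given as a value only. The planned edgeR alternative was not run. The change at any time had no fit on 2 groups alone. Depth limits Rcan3 (188 to 332 reads), Nfatc4 (151 to 277) and Nfatc2 (157 to 530) most, and the 95% interval of Rcan3 at 120 min ran from -0.14 to 0.26.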
